A study of Mus musculus with 24 samples.

Results

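Interferon gamma GTPases and the transcription factor gene Irf1 were examined in mouse CD8+ T cells exposed to bile acids. The set was chosen by gene symbol and holds 10 genes: Gbp2, Gbp3, Gbp5 and Gbp7 of the guanylate-binding protein family, Iigp1, Tgtp2, Irgm1, Irgm2 and Igtp of the immunity-related GTPase family, and Irf1. All 10 symbols were found among the 24537 genes of the count table, and all 10 were among the 13044 genes with enough counts to be tested. None of them was scarce: a member had between 1043 and 23210.5 counts in a library.

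The 24 RNA-seq libraries fall into 8 groups of 3, all made from CD8+ T cells after activation in culture. Control cells were set beside cells exposed to 1 of 7 bile acids. Lithocholic acid (LCA), its iso, isoallo and dehydro forms (IsoLCA, IsoAlloLCA and DehydroLCA) and ursodeoxycholic acid (UDCA) were used at 50 µM. The taurine conjugates, taurocholic acid (TCA) and taurochenodeoxycholic acid (TCDCA), were used at 100 µM. The labels give no strain, genotype, animal age, activating agent or control vehicle, and exposure is given as 24 h in the series' design text and as overnight in the treatment protocol. Nothing in the labels ties a replicate to its own mouse or culture, so a p-value here rests on the spread among libraries, part or all of which may be technical.

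Interferon gamma binds a receptor made of the Ifngr1 and Ifngr2 products, and the kinases JAK1 and JAK2 then carry the signal to gamma-activated sites (GAS) in DNA. Irf1 is an early target of this signal, and its product binds interferon-stimulated response elements (ISRE) in many later targets. Guanylate-binding proteins and immunity-related GTPases are large cytosolic GTPases that attack the vacuoles of intracellular parasites and bacteria. Within the second family, Iigp1 and Tgtp2 encode effectors that coat such vacuoles, while Irgm1, Irgm2 and Igtp encode regulators that keep the effectors off the cell's own membranes. Activated CD8+ T cells make interferon gamma and also respond to it.

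The DNA before these genes carries the motifs through which interferon gamma and IRF1 act, and it is shown here because members that moved in opposite directions with IsoAlloLCA carry the same kinds of motif. Promoter windows from RefSeq (build GRCm38.p6, 250 bases before to 50 after a start) matched 9 of the 10 members, all but Iigp1, with 11 windows in all. Each line gives the 110 bases before the start and the first 10 of the transcript, 5′ to 3′ on the gene's strand, with capitals marking matches to a GAS (TTCNNNGAA, which is its own reverse complement) or an ISRE core (GAAANNGAAA, read on both strands).
Gbp2 (chr3:142620553-142620672, plus strand): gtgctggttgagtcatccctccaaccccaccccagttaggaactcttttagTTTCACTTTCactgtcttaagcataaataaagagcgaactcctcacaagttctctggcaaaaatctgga
Gbp5 (chr3:142496824-142496943, plus strand): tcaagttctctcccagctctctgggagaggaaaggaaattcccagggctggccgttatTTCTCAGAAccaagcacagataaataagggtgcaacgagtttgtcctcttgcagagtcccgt
Gbp7 (chr3:142530226-142530345, plus strand): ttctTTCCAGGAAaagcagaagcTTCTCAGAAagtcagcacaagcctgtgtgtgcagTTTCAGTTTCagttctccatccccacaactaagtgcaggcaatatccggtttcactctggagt
Igtp (chr11:58199446-58199565, plus strand): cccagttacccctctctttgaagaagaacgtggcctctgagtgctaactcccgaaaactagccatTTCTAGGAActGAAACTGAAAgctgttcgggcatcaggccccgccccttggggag
Irgm2 (chr11:58214867-58214986, plus strand): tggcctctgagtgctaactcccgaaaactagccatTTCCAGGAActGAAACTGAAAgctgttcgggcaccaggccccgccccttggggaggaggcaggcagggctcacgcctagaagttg
Tgtp2 (chr11:49064203-49064322, minus strand): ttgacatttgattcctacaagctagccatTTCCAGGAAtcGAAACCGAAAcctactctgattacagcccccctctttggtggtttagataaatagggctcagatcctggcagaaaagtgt
Irgm1 (chr11:48871411-48871530, minus strand): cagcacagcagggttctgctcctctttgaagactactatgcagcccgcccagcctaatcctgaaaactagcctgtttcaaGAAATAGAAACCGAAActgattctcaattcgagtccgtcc
Irf1 (chr11:53769904-53770023, plus strand): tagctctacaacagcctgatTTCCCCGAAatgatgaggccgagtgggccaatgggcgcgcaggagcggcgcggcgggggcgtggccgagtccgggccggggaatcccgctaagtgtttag

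Of the 9 members whose windows were read, 8 held an ISRE match, 6 a GAS match and 5 held both. Among all 32851 windows, 3.44% held an ISRE match, 8.3% a GAS match and 0.45% both. Irf1 was the member with a GAS match and no ISRE match, and Gbp2, Gbp3 and Irgm1 had ISRE matches and no GAS match. In Igtp, Irgm2 and Tgtp2 the GAS lay 2 bases upstream of the ISRE on the gene's strand. That arrangement, read from these members before it was counted, occurred in 5 of all the windows, and the genes were Igtp, Irgm2, Tgtp2, Tgtp1 and Gm12185, all immunity-related GTPase genes and some of them close copies. In Gbp7 the GAS matches lay 25 and 44 bases upstream of the ISRE, which was on the other strand, and in Gbp5 an ISRE match lay 165 bases before the start, outside the stretch shown. The capitals are matches of letters and not shown to be bound in these cells.

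The authors' table gives positions on the mm10 genome, and not all of its starts are those of the RefSeq windows above. The RefSeq start was 48871420 for Irgm1, where the table has 48871346. For Gbp3 the RefSeq starts were 142560044 and 142560356, where the table has 142560496. Gbp5, Gbp7, Gbp3 and Gbp2 lie side by side on the plus strand of chromosome 3 between 142496934 and 142638008. Irgm1 (48865249 to 48871346, minus strand), Tgtp2 (49057196 to 49064212, minus strand), Irf1 (53770014 to 53777324, plus strand), Igtp (58199556 to 58207592, plus strand) and Irgm2 (58214977 to 58222783, plus strand) lie on chromosome 11. Iigp1 (60376029 to 60392629, plus strand) lies on chromosome 18. Counts were taken over exons. Tgtp2 is nearly a copy of its neighbour Tgtp1: 85.84% of the 50-base words in its GENCODE transcripts also occur in Tgtp1, so reads may have been divided between them and its value is uncertain. Tgtp2 also overlaps Olfr56 and Gbp2 overlaps Mir6381, each on the opposite strand, and no strand option is recorded. Igtp and Irgm2 share fewer words, 11.77% of those of Igtp, and Irf1 shares none with another gene.

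The libraries held 25998051 to 41024340.5 counts in genes. The share of a library's total that lay in exons averaged 82.6% ± 1.37 (SD, n = 3) in control and was lowest in IsoAlloLCA, at 78.3% ± 2.78 (SD, n = 3). Markers of CD8+ T cells were abundant, with summed levels of 2927 to 3034 CPM (CPM being scaled to the TMM-normalised library size) in control and 3039 to 3399.8 CPM in IsoAlloLCA. Of 14 macrophage and dendritic cell markers, Siglech was at 0 in every library, and Lyz2 had at most 9 counts, Csf1r at most 4 and Adgre1 at most 3. Others of the list were present: H2-Ab1 had up to 1125 counts, Cd68 up to 236 and Xcr1 up to 100. With IsoAlloLCA, Cd68 rose from 2.51 ± 0.215 to 5.42 ± 1.23 CPM (1.12 ± 0.15), Xcr1 to 2.72 ± 0.543 CPM (1.17 ± 0.18) and Itgax from 0.217 ± 0.0821 to 0.494 ± 0.204 CPM, while H2-Ab1 was at 31.5 ± 2.91 and 27.4 ± 1.79 CPM. The list, most of it H2-Ab1, summed to 34.3 to 39.9 CPM in control and 36.1 to 38.5 in IsoAlloLCA. It summed to 19.2 to 20.1 CPM in LCA, 20.8 to 23.1 in TCDCA, 21.2 to 23.1 in UDCA, 24.1 to 26.4 in IsoLCA, 25.8 to 28.0 in DehydroLCA and 22.4 to 32.7 in TCA, all below control. The 4 NK cell markers summed to 1.98 to 2.08 CPM in control and 4.35 to 4.89 in IsoAlloLCA. The 3 CD4 T cell markers, mostly Zbtb7b, summed to 48.2 to 52.4 CPM in control and 60.3 to 65.8 in LCA. Cd4 itself had at most 40 counts, and Foxp3 had 234 to 349. Granulocyte markers did not exceed 0.123 CPM in sum, and the stromal and erythroid list, mostly Pecam1, summed to 45.2 to 51.6 CPM in control and 30.6 to 36.7 in LCA. The part of these differences in the results was not tested, and in bulk RNA fewer responding cells and less RNA per cell cannot be told apart.

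Per transcript length, Igtp was the most abundant member in control cells, at 308 ± 8.66 RPKM (CPM per kilobase of transcript; SD, n = 3). Gbp2 followed at 75.0 ± 1.69 RPKM, then Irf1 at 63.6 ± 2.47 and Irgm1 at 48.0 ± 2.65 RPKM. The lowest were Irgm2, at 27.0 ± 0.351 RPKM, and Gbp3, at 26.0 ± 0.994 RPKM. Group means spread least for Gbp7, 1.25 times from lowest to highest, and most for Iigp1, at 3.42 times.

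**Figure D1:**
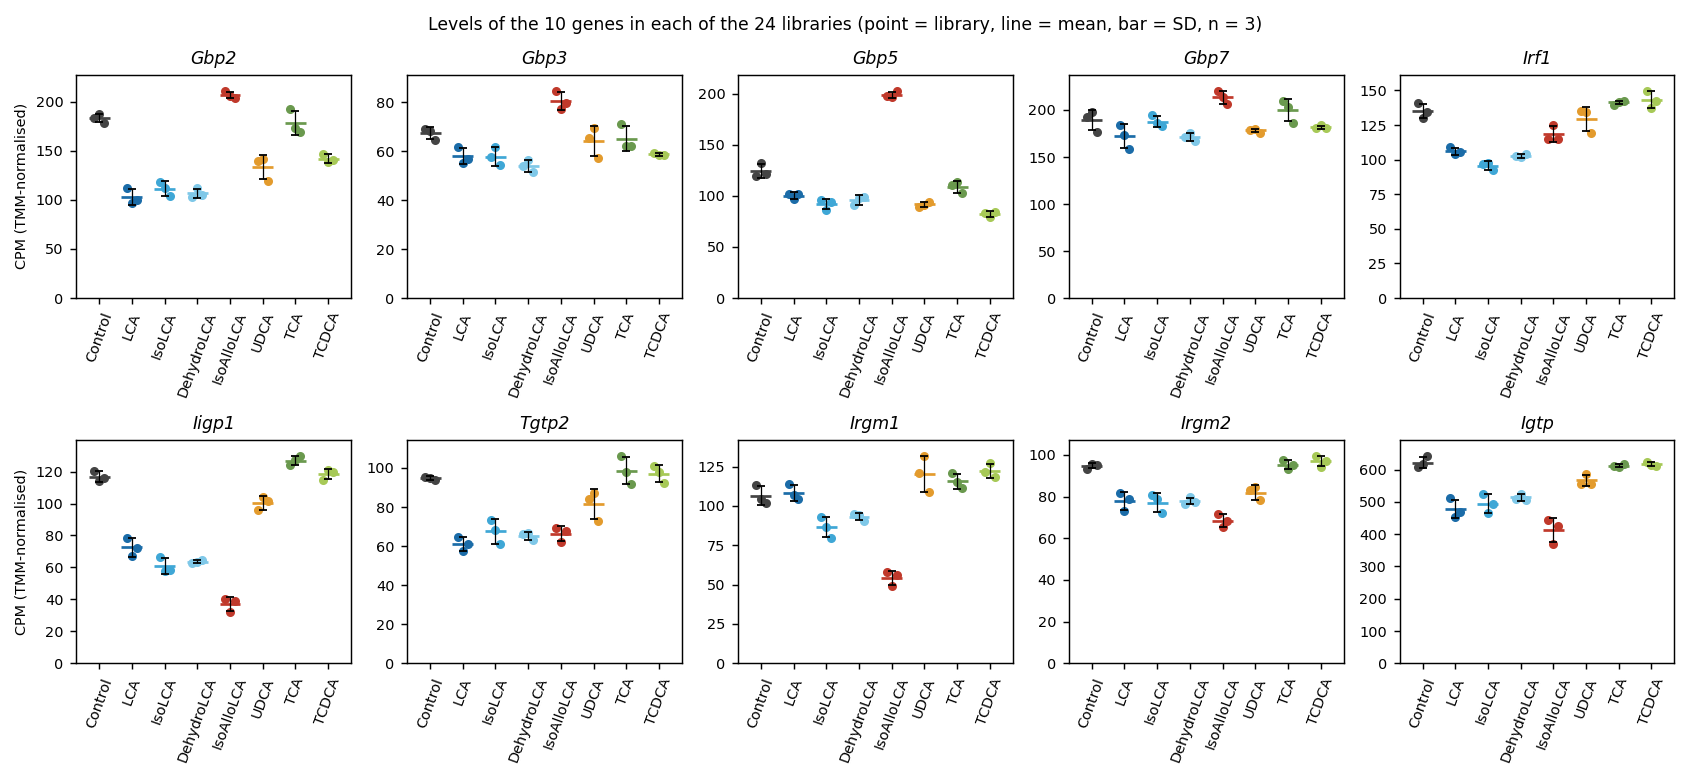
Levels of the 10 genes in CPM (vertical axis, from 0) in the 8 groups (horizontal axis); points are libraries, lines are means and bars are SD (n = 3). IsoAlloLCA libraries are the highest for Gbp2, Gbp3 and Gbp5 and the lowest for Iigp1, Irgm1, Irgm2 and Igtp, without overlap with control.

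Each acid was first compared with control, to ask how it altered these genes. A gene was said to have risen or fallen when its Benjamini-Hochberg adjusted p over all 13044 tested genes was under 0.05 in edgeR's quasi-likelihood test. Values after a gene are log2 fold changes ± SE of 3 libraries against 3. The 7 comparisons share the same 3 control libraries. With LCA 9 of 10 members fell and Irgm1 did not pass, where 17.7% of all tested genes rose and 18.8% fell (3120 higher and 1973 lower with library size alone, against 2312 and 2453). The summed macrophage and dendritic cell markers were lower in LCA, as given above, and also in IsoLCA and DehydroLCA. Most of that sum was H2-Ab1, with means of 31.5 CPM in control and 14.1 in LCA. Cd68 went the other way, at 2.51 CPM in control and 3.30 in LCA, so the lower sum does not describe the whole list. With IsoLCA 9 fell and Gbp7 did not pass, against 3.73% of tested genes that rose and 6.12% that fell. With DehydroLCA 8 fell and Gbp7 and Irgm1 did not pass, against 2.41% that rose and 3.41% that fell. The median change over the 10 genes was -0.33 with LCA, -0.38 with IsoLCA and -0.35 with DehydroLCA, beside a median of 0.01 over all tested genes in each comparison.

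IsoAlloLCA split the set. The 4 guanylate-binding protein genes rose and the other 6 members fell, in a comparison where 30.6% of tested genes rose and 27.8% fell (4998 higher and 2828 lower with library size alone, against 3986 and 3632). Most tested genes were thus called in one direction or the other, and the members' count is to be read against that. Among the members the direction went with the gene family: all 4 genes of the chromosome 3 cluster were higher and all 5 immunity-related GTPase genes were lower. It did not hold for the whole guanylate-binding protein family. Of its 6 genes on chromosome 5, which are no members, 4 fell and 1 rose with IsoAlloLCA. In these libraries the exon share was the lowest, and Cd68, Xcr1, Itgax and the summed NK cell markers were higher, as given above. H2-Ab1 had a lower mean than in control, and the whole macrophage and dendritic cell list overlapped control in sum. For Gbp2 with IsoAlloLCA, the call was lost without Control replicate 3. Gbp2 ranged over 14 alternatives from 0.15 to 0.24, with an adjusted p of 9.94e-04 to 0.0669.

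The summed macrophage and dendritic cell markers, mostly H2-Ab1, were also below control in the next 3 groups. H2-Ab1 had means of 17.5 CPM in UDCA, 16.8 in TCDCA and 23.6 in TCA, against 31.5 in control. Cd68 had 2.44, 2.56 and 2.46 CPM, against 2.51 in control. With UDCA 5 members fell, Irgm1 rose and 4 did not pass, against 9.18% of tested genes that rose and 10.7% that fell. With TCDCA, Gbp2, Gbp3 and Gbp5 fell, Irgm1 rose and 6 members did not pass, against 5.08% that rose and 8.04% that fell (1043 higher and 918 lower with library size alone, against 663 and 1049). The TCDCA count was 2 without Control replicate 2, TCDCA replicate 1 or TCDCA replicate 2, left out singly. With TCA none of the 10 passed the test in edgeR, where 0.0843% of tested genes rose and 0.353% fell (16 higher and 38 lower with library size alone, against 11 and 46). At an unadjusted p under 0.05 it was 1 member, Gbp5, which DESeq2 also called.

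**Figure D2:**
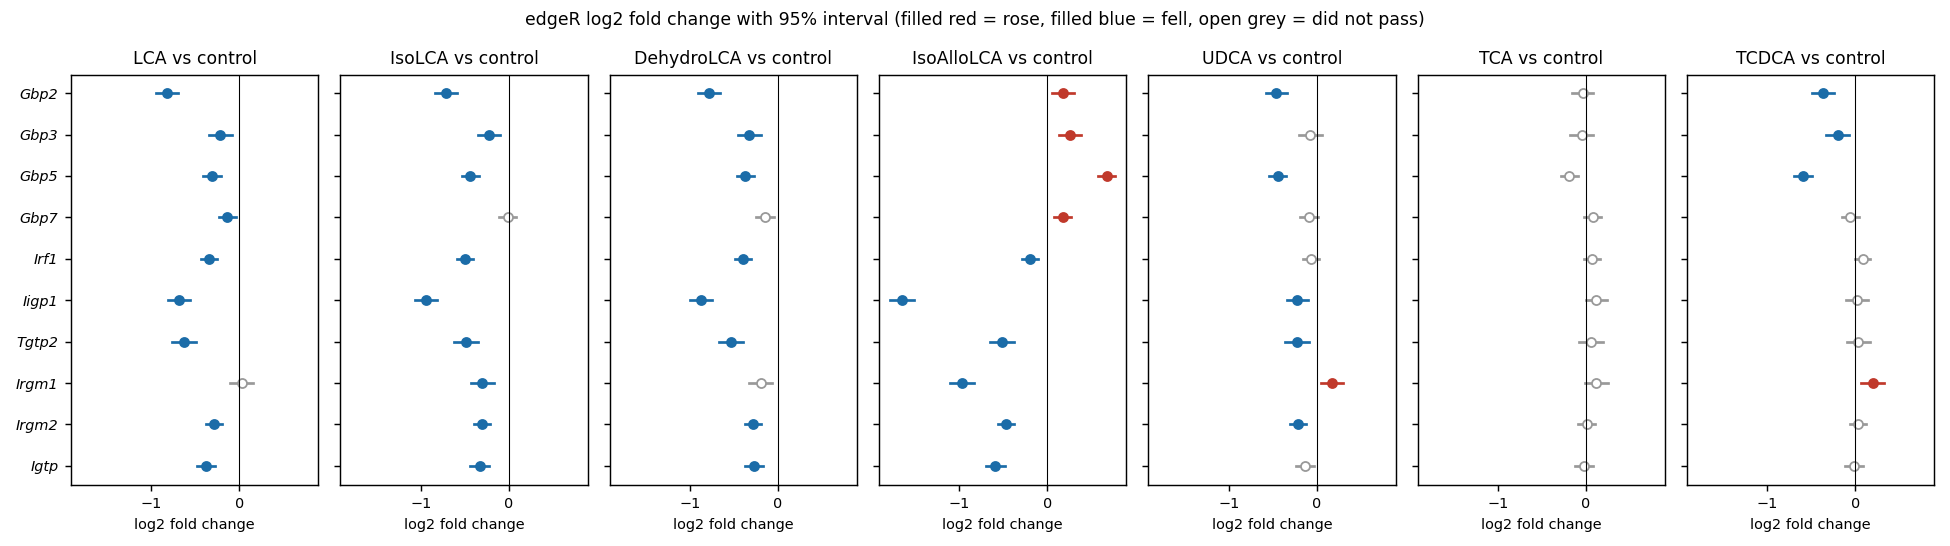
Log2 fold change of each gene against control (horizontal axis) with its 95% interval, 1 panel per acid; filled points passed the test and open points did not. LCA, IsoLCA and DehydroLCA have their filled points to the left of 0, IsoAlloLCA has 4 to the right and 6 to the left, and TCA has none filled.

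Irf1, the transcription factor that many of the other members answer to, had 141, 130.2 and 134 CPM in the 3 control libraries. It had 97.0, 97.9 and 92.4 CPM with IsoLCA, 103, 102 and 104 with DehydroLCA and 109, 104 and 105 with LCA, and no library of these 3 groups reached the lowest control. The change was -0.50 ± 0.04 with IsoLCA (edgeR adjusted p = 1.11e-08), -0.39 ± 0.04 with DehydroLCA and -0.35 ± 0.04 with LCA. With IsoAlloLCA it had 115, 125 and 115 CPM, between those groups and control, a smaller fall (-0.19 ± 0.04, adjusted p = 6.34e-04). UDCA (-0.06 ± 0.04), TCA (0.06 ± 0.04) and TCDCA (0.08 ± 0.04) did not pass, with libraries overlapping those of control. In order, TCDCA, TCA, control and UDCA overlapped their neighbours, IsoAlloLCA overlapped UDCA and not LCA, and IsoLCA was lowest.

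Among the guanylate-binding protein genes, Gbp2 and Gbp5 moved most. Gbp2, whose product coats and lyses pathogen vacuoles, had 183, 187 and 179 CPM in control. It had 112, 97.2 and 100.3 CPM with LCA, 119, 112 and 104 with IsoLCA and 103, 112 and 105 with DehydroLCA, which is 0.564, 0.609 and 0.582 times control. Those 3 groups overlapped each other and lay wholly below control (-0.83 ± 0.06 with LCA, edgeR adjusted p = 1.72e-10). UDCA (139, 142 and 119 CPM, -0.46 ± 0.06) and TCDCA (147, 139 and 140.4 CPM, -0.37 ± 0.06) lay between them and control. IsoAlloLCA was the exception, with 211, 206 and 204 CPM, above every control library (0.18 ± 0.06). TCA libraries, at 192, 173 and 169 CPM, overlapped control.

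Gbp5, which promotes inflammasome assembly, had 119, 132 and 121 CPM in control and 197, 196 and 203 CPM with IsoAlloLCA, a rise to 1.60 times control (0.68 ± 0.05, edgeR adjusted p = 6.82e-12). In each of the other acids its mean was below control. TCDCA was the lowest, with 82.8, 79.2 and 84.6 CPM and no library reaching those of any other group (-0.60 ± 0.05, edgeR adjusted p = 9.15e-09). UDCA had 89.6, 91.0 and 94.1 CPM (-0.44 ± 0.05), IsoLCA 95.5, 86.1 and 94.1 (-0.43 ± 0.05), DehydroLCA 90.8, 98.1 and 98.9 (-0.37 ± 0.05) and LCA 102, 96.4 and 102 (-0.31 ± 0.05). TCA libraries, at 111, 114 and 102 CPM, also lay below all 3 of control, but the difference did not pass (-0.19 ± 0.05, adjusted p = 0.0731). It passed with DESeq2 (adjusted p = 0.0218), with no filter (0.0301) and without Control replicate 1 (0.036), and its adjusted p over 14 alternatives ran from 0.0218 to 0.547.

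Gbp3 and Gbp7 changed less. Gbp3 rose with IsoAlloLCA, from 69.2, 68.4 and 64.4 CPM in control to 84.5, 77.3 and 79.6 CPM (0.26 ± 0.06), and fell with DehydroLCA (-0.32 ± 0.06), LCA (-0.22 ± 0.06), IsoLCA (-0.22 ± 0.06) and TCDCA (-0.20 ± 0.06). For Gbp3 with IsoLCA, the call was lost on leaving out singly Control replicates 1 and 2 and IsoLCA replicates 1 and 3. Gbp3 ranged over 14 alternatives from -0.27 to -0.18, with an adjusted p of 0.00614 to 0.144. For Gbp3 with TCDCA, the call was lost on leaving out singly Control replicates 1 and 2 and TCDCA replicates 1, 2 and 3, and with library size alone. Gbp3 ranged over 14 alternatives from -0.23 to -0.18, with an adjusted p of 0.0039 to 0.127. Gbp7, whose product has been linked to autophagy and oxidase assembly, had 192, 198 and 177 CPM in control and 220.1, 214 and 206 CPM with IsoAlloLCA, where it rose (0.18 ± 0.05). Its fall with LCA was small (-0.14 ± 0.05) and the libraries overlapped those of control. For Gbp7 with LCA, the call was lost on leaving out singly Control replicates 1 and 2 and LCA replicate 3, in a fit of the 6 libraries of the comparison alone, and with library size alone. Gbp7 ranged over 14 alternatives from -0.19 to -0.08, with an adjusted p of 0.00449 to 0.194. In IsoLCA (-0.01 ± 0.05) and the remaining groups Gbp7 did not pass, although all DehydroLCA libraries lay below control (-0.15 ± 0.05). Gbp7 passed there in the 6 libraries of the comparison alone (0.0372), with DESeq2 (0.0426), with the replicate block (0.0144) and without Control replicate 3 (0.023), and its adjusted p over 14 alternatives ran from 0.0144 to 0.324.

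Iigp1, an effector that loads onto parasite vacuoles, had the widest range of the 10 genes. It had 121, 114 and 116 CPM in control and 40.1, 32.4 and 38.8 CPM with IsoAlloLCA, 0.317 times control (-1.66 ± 0.06, edgeR adjusted p = 1.70e-16). IsoLCA had 66.8, 57.8 and 58.5 CPM (-0.94 ± 0.06), DehydroLCA 62.5, 63.7 and 64.5 (-0.88 ± 0.06) and LCA 78.6, 67.0 and 72.3 (-0.68 ± 0.06). All libraries of these 4 groups lay below all controls, and those of IsoAlloLCA below all the rest. UDCA, at 95.7, 104 and 101 CPM, was lower by less (-0.22 ± 0.06). For Iigp1 with UDCA, the call was lost without UDCA replicate 1. Iigp1 ranged over 14 alternatives from -0.25 to -0.18, with an adjusted p of 0.00241 to 0.067. TCA libraries, at 124, 127 and 129 CPM, were all above control without passing (0.12 ± 0.06, adjusted p = 0.596), and TCDCA overlapped control (0.02 ± 0.06).

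Tgtp2, the other effector gene, had 95.6, 94.9 and 93.8 CPM in control. The values of LCA (64.8, 57.5 and 61.1 CPM), DehydroLCA (66.2, 66.6 and 62.9), IsoAlloLCA (69.4, 61.9 and 67.5) and IsoLCA (73.5, 68.4 and 60.9) overlapped one another and were all below control. The fall was largest with LCA (-0.63 ± 0.07) and smallest of these with IsoLCA (-0.49 ± 0.07). In an alternative added after seeing the data, Tgtp2 was summed with its copy Tgtp1. The sum kept the calls and fell with LCA, IsoLCA, DehydroLCA, IsoAlloLCA and UDCA. Most of the sum was Tgtp1, at 248 CPM in control beside 94.7 for Tgtp2. It thus describes the pair and cannot tell a fall of Tgtp2 from one of Tgtp1. In UDCA the fall of Tgtp2 as counted alone was -0.22 ± 0.07. For Tgtp2 with UDCA, the call was lost on leaving out singly Control replicate 2 and UDCA replicate 3. Tgtp2 ranged over 15 alternatives from -0.28 to -0.15, with an adjusted p of 0.00318 to 0.129. TCA (0.06 ± 0.07) and TCDCA (0.04 ± 0.07) did not pass.

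The 3 regulator genes did not move as one. Irgm1, which also takes part in autophagy and T cell survival, had 113, 104 and 102 CPM in control and 57.7, 49.2 and 56.3 CPM with IsoAlloLCA (-0.97 ± 0.07, edgeR adjusted p = 5.19e-12). It fell by less with IsoLCA, at 92.8, 86.9 and 79.8 CPM (-0.30 ± 0.06). LCA libraries, at 114, 107 and 104 CPM, overlapped control (0.03 ± 0.06), and the lower values of DehydroLCA (94.8, 94.0 and 90.6 CPM) did not pass (-0.19 ± 0.06, adjusted p = 0.074). Irgm1 passed there in the 6 libraries of the comparison alone (0.00792), with DESeq2 (0.0444), with no filter (0.027) and with the replicate block (0.0251), and its adjusted p over 14 alternatives ran from 0.00792 to 0.228. Irgm1 was the 1 member that rose with UDCA (121, 132 and 109 CPM, 0.18 ± 0.06) and TCDCA (121, 127 and 119 CPM, 0.20 ± 0.06). Both rises were small, and the UDCA libraries overlapped those of control. For Irgm1 with UDCA, the call was lost on leaving out singly Control replicates 2 and 3 and UDCA replicates 1 and 2, in a fit of the 6 libraries of the comparison alone, with the stricter filter, with DESeq2's size factors, and with DESeq2. Irgm1 ranged over 14 alternatives from 0.10 to 0.24, with an adjusted p of 0.0111 to 0.327. For Irgm1 with TCDCA, the call was lost on leaving out singly Control replicates 2 and 3 and TCDCA replicates 1 and 2. Irgm1 ranged over 14 alternatives from 0.17 to 0.24, with an adjusted p of 0.00645 to 0.139.

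Igtp, at 607, 618 and 641 CPM in control, fell with IsoAlloLCA to 444, 371 and 424 CPM (-0.59 ± 0.05) and with LCA to 511, 454 and 469 CPM (-0.38 ± 0.05). IsoLCA (-0.33 ± 0.05) and DehydroLCA (-0.28 ± 0.05) libraries were below control as well. Irgm2, its neighbour, followed a similar course, with 93.4, 95.6 and 95.3 CPM in control, 71.5, 65.2 and 68.4 with IsoAlloLCA (-0.47 ± 0.05) and falls with LCA (-0.28 ± 0.04), DehydroLCA (-0.28 ± 0.04) and IsoLCA (-0.30 ± 0.04). With UDCA, Irgm2 fell (-0.21 ± 0.05), while Igtp lay below control in all 3 libraries without passing (-0.13 ± 0.05, adjusted p = 0.0636). Igtp passed there in the 6 libraries of the comparison alone (0.0328), with the stricter filter (0.0433), with library size alone (0.0402) and with no filter (0.035), and its adjusted p over 14 alternatives ran from 0.0328 to 0.17. Neither passed with TCA or TCDCA.

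Ratios within a library show the split without any scaling between libraries. Per transcript length, Gbp2 exceeded Iigp1 1.94, 2.10 and 1.97 times in the control libraries and 6.71, 8.11 and 6.72 times in those of IsoAlloLCA. The ratio stayed between 1.46 and 2.48 in the 21 libraries of the other groups. Gbp5 over Iigp1 averaged 1.10 ± 0.0917 (SD, n = 3) in control, 5.60 ± 0.614 with IsoAlloLCA and 0.720 ± 0.0355 with TCDCA. In this ratio the libraries of no acid overlapped control: those of TCA and UDCA also lay below, and those of LCA, IsoLCA and DehydroLCA above. Gbp2 over Irgm1 averaged 1.57 ± 0.0823 in control, 3.48 ± 0.287 with IsoAlloLCA and 0.865 ± 0.034 with LCA. Gbp2 over Gbp7, within the chromosome 3 cluster, was 2.22 ± 0.0806 in control and 2.22 ± 0.0413 with IsoAlloLCA. It was 1.38 ± 0.084 with LCA, 1.36 ± 0.051 with IsoLCA and 1.43 ± 0.0464 with DehydroLCA, and the means of UDCA, TCDCA and TCA lay between. These pairs of genes were chosen because they had been seen to move apart, so the ratios are a description with no test.

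**Figure D3:**
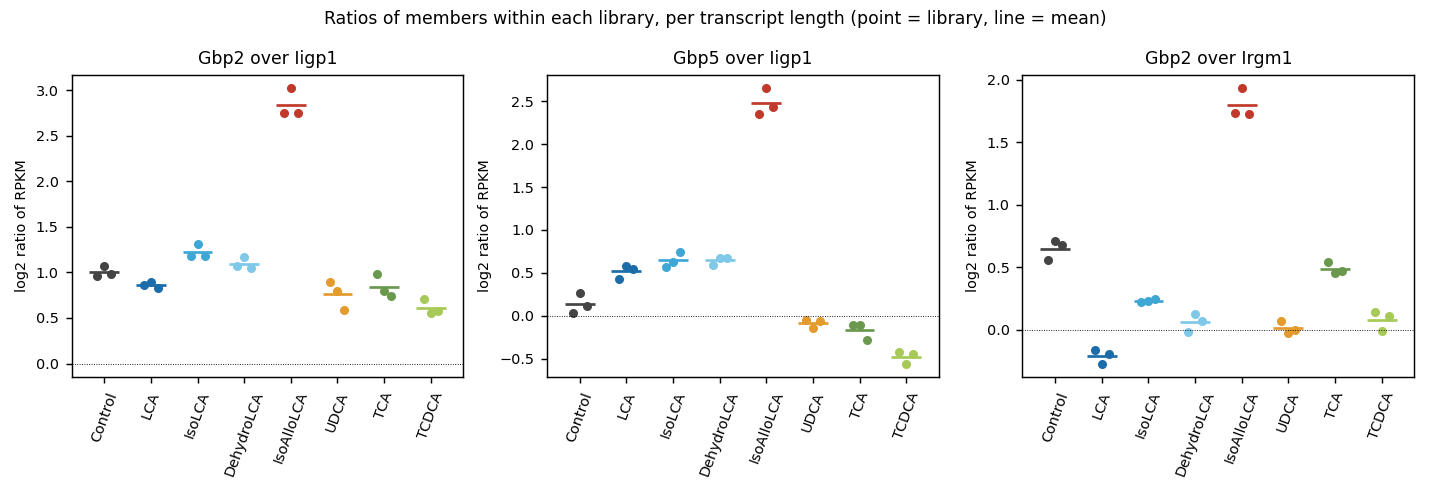
Log2 ratio of RPKM between members within each library (vertical axis) by group (horizontal axis); points are libraries and lines are means of 3. The IsoAlloLCA libraries stand above all others in each panel.

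Acids of matching dose and related structure were next set against each other, in 5 pairs, to ask whether a change in structure went with a change in these genes. IsoAlloLCA differs from IsoLCA in the configuration of the junction between the A and B rings, and 9 of 10 members differed between them. All 4 guanylate-binding protein genes and Irf1 were higher with IsoAlloLCA, 4 immunity-related GTPase genes were lower and Tgtp2 did not pass, against 31.7% of tested genes higher and 28.1% lower. Gbp5 was 2.16 times as high (1.11 ± 0.05, edgeR adjusted p = 1.29e-15) and Gbp2 1.86 times as high (0.89 ± 0.06). Gbp3 (0.48 ± 0.06), Irf1 (0.31 ± 0.04) and Gbp7 (0.19 ± 0.05) were higher by less. Iigp1 (-0.72 ± 0.07), Irgm1 (-0.67 ± 0.07), Igtp (-0.26 ± 0.05) and Irgm2 (-0.17 ± 0.05) were lower. For Tgtp2 the 95% interval of the difference was -0.17 to 0.11.

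IsoLCA and LCA, epimers at the hydroxyl of the A ring, differed in 4 members, against 15.8% of tested genes higher and 14.6% lower (1738 higher and 2462 lower with library size alone, against 2058 and 1899). Irgm1 (-0.33 ± 0.06), Iigp1 (-0.25 ± 0.06), Irf1 (-0.15 ± 0.04) and Gbp5 (-0.12 ± 0.05) were lower with IsoLCA. For Irf1 in IsoLCA against LCA, the call was lost on leaving out singly IsoLCA replicate 3 and LCA replicate 1. Irf1 ranged over 14 alternatives from -0.18 to -0.12, with an adjusted p of 0.00694 to 0.07. The difference in Gbp5 was at the edge of the test: its adjusted p was 0.049, and 0.0517 when adjusted over all genes of the 5 pairs together. For Gbp5 in IsoLCA against LCA, the call was lost on leaving out singly IsoLCA replicates 2 and 3 and LCA replicates 1, 2 and 3, in a fit of the 6 libraries of the comparison alone, with the stricter filter, with DESeq2's size factors, with DESeq2, with no filter, and with the replicate block. Gbp5 ranged over 14 alternatives from -0.15 to -0.08, with an adjusted p of 0.014 to 0.237. With the replicate number as a block in edgeR, fitted to all 24 libraries, Gbp5 had an adjusted p of 0.0515. Gbp7 (0.13, adjusted p = 0.00986) and Tgtp2 (0.14, adjusted p = 0.0421) then passed as higher with IsoLCA. The block gave all 8 groups the same replicate effects. Same-numbered libraries deviated together in this pair (r = 0.12 to 0.60), but replicate 1 of LCA with control stood at -0.51. These calls thus rest on a pairing not shown for all groups. Without the block, the intervals of the other differences were -0.02 to 0.24 for Gbp2, -0.13 to 0.13 for Gbp3, 0.03 to 0.22 for Gbp7, 0.01 to 0.28 for Tgtp2, -0.11 to 0.08 for Irgm2 and -0.06 to 0.15 for Igtp.

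DehydroLCA carries a ketone in place of that hydroxyl of LCA. In this pair 2 members differed, against 10.3% of tested genes higher and 7.49% lower (1093 higher and 1377 lower with library size alone, against 1340 and 977). Irgm1 (-0.22 ± 0.06) and Iigp1 (-0.19 ± 0.06) were lower with DehydroLCA, as both were with IsoLCA. For Iigp1 in DehydroLCA against LCA, the call was lost on leaving out singly DehydroLCA replicates 1, 2 and 3 and LCA replicates 1 and 3. Iigp1 ranged over 14 alternatives from -0.25 to -0.13, with an adjusted p of 0.00495 to 0.159. For Irgm1 in DehydroLCA against LCA, the call was lost on leaving out singly DehydroLCA replicate 3 and LCA replicate 1. Irgm1 ranged over 14 alternatives from -0.25 to -0.19, with an adjusted p of 2.90e-04 to 0.0689. For the other 8 members the intervals lay within -0.24 and 0.23, which bounds a difference without showing that the acids act alike.

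UDCA has a further hydroxyl on the B ring that LCA lacks. With UDCA 5 members were higher than with LCA and 1 was lower, against 14.8% of tested genes higher and 12% lower (1565 higher and 2086 lower with library size alone, against 1934 and 1570). Iigp1 (0.47 ± 0.06), Tgtp2 (0.41 ± 0.07), Gbp2 (0.37 ± 0.06), Irf1 (0.29 ± 0.04) and Igtp (0.25 ± 0.05) were higher, that is, nearer to control. Gbp5 went the other way (-0.13 ± 0.05). For Gbp5 in UDCA against LCA, the call was lost on leaving out singly LCA replicates 1 and 3 and UDCA replicates 1 and 2. Gbp5 ranged over 14 alternatives from -0.16 to -0.12, with an adjusted p of 0.0119 to 0.141. The intervals were 0.02 to 0.28 for Gbp3, -0.05 to 0.15 for Gbp7, 0.02 to 0.28 for Irgm1 and -0.02 to 0.17 for Irgm2.

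TCA has a hydroxyl on the C ring that TCDCA lacks. Gbp5 (0.41 ± 0.05, edgeR adjusted p = 4.14e-05) and Gbp2 (0.33 ± 0.06) were higher with TCA, against 2.65% of tested genes higher and 0.958% lower. Gbp3 and Gbp7 were also higher in every TCA library than in any of TCDCA without passing (Gbp3 0.15 ± 0.06, Gbp7 0.14 ± 0.05), and Gbp7 passed when p-values were adjusted over all genes of the 5 pairs together (adjusted p = 0.0361). For Irf1 and the 5 immunity-related GTPase genes the intervals lay within -0.21 and 0.22. UDCA and TCDCA share the position of the added B ring hydroxyl, in opposite orientation, and differ in dose and conjugation, so their values stand side by side only: Gbp5 -0.44 and -0.60, Gbp2 -0.46 and -0.37, Iigp1 -0.22 and 0.02, each against control.

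**Figure D4:**
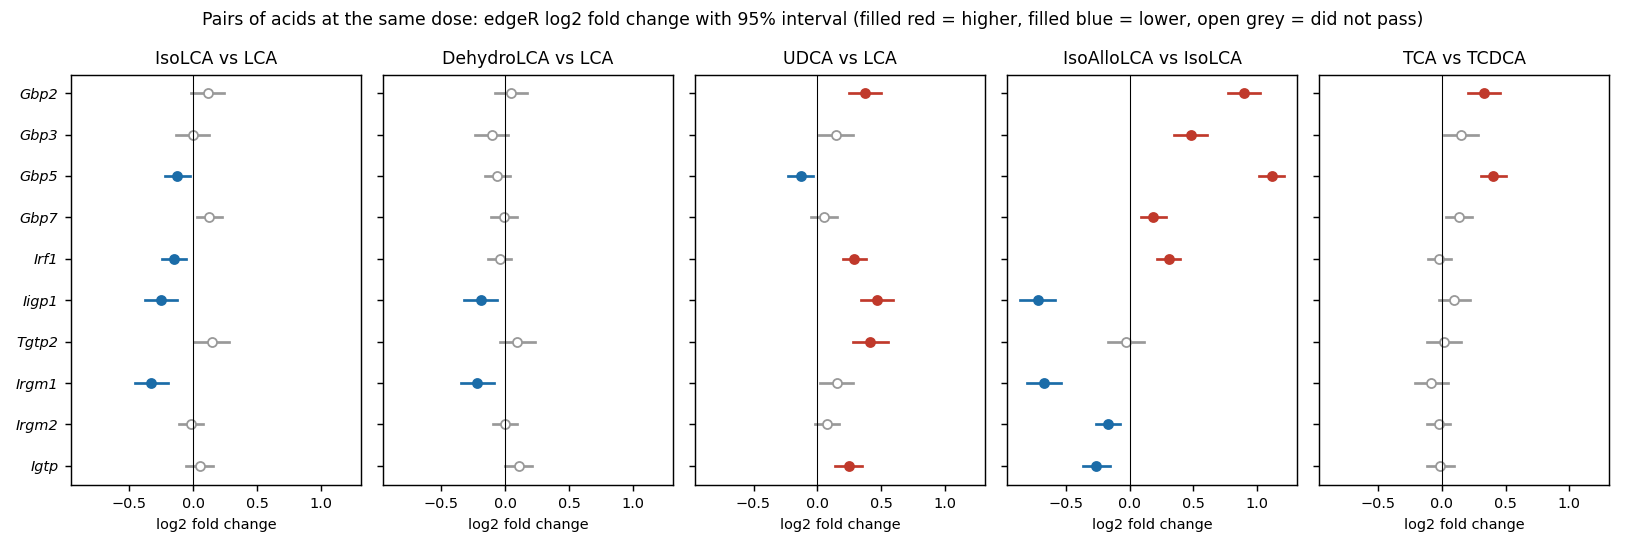
Log2 difference between acids of a pair (horizontal axis, first acid minus second) with its 95% interval for each gene; filled points passed the test. IsoAlloLCA against IsoLCA has 9 filled points on both sides of 0, and DehydroLCA against LCA has 2.

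Of 15 further interferon-inducible GTPase genes, 14 could be tested, and Gbp2b was at 0.0597 ± 0.0312 CPM in control. Gvin1 and Gm4070 have near-identical counts and amount to 1 measurement, although each is counted below. Over all tested genes, 17.7% rose and 18.8% fell with LCA, 3.73% and 6.12% with IsoLCA, and 2.41% and 3.41% with DehydroLCA. These shares were 30.6% and 27.8% with IsoAlloLCA, 9.18% and 10.7% with UDCA, and 5.08% and 8.04% with TCDCA. With LCA 3 rose, 7 fell and 4 of 14 missed the threshold, with IsoLCA 0 rose, 9 fell and 5 of 14 missed the threshold, with DehydroLCA 0 rose, 7 fell and 7 of 14 missed the threshold and with IsoAlloLCA 1 rose, 10 fell and 3 of 14 missed the threshold. With UDCA 1 rose, 7 fell and 6 of 14 missed the threshold, and with TCDCA 3 rose, 2 fell and 9 of 14 missed the threshold. Among them, 4 immunity-related GTPase genes fell with both LCA and IsoAlloLCA: Tgtp1 was -0.79 with LCA and -0.66 with IsoAlloLCA, Ifi47 -0.43 and -0.33, Gm4951 -0.52 and -1.55, and Gm12185 -0.48 and -0.77. F830016B08Rik (-0.43 with IsoAlloLCA) and Gm5431 (0.34) were scarce, at 1.85 ± 0.440 and 1.41 ± 0.352 CPM in control, and passed neither with LCA nor with IsoAlloLCA. The giant GTPase gene Gvin1 fell with LCA (-0.56) and, by less, with IsoAlloLCA (-0.12).

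The second cluster of guanylate-binding protein genes, on chromosome 5 between 105014153 and 105346472, went partly with the cluster on chromosome 3 and partly against it. With IsoLCA 3 of its 6 genes fell and with DehydroLCA 2, none rose, and 3 of the 4 genes on chromosome 3 fell in each. With UDCA 1 of the 6 rose and 2 fell, where 2 of the 4 fell. With IsoAlloLCA 4 of its 6 genes fell, Gbp10 (-0.75 ± 0.08), Gbp6 (-0.62 ± 0.05), Gbp9 (-0.22 ± 0.09) and Gbp4 (-0.21 ± 0.06), while Gbp8 rose (0.34 ± 0.14) and Gbp11 did not pass (0.02 ± 0.12). Libraries of Gbp8 overlapped, with 21.8 to 34.0 CPM in control and 28.9 to 43.9 with IsoAlloLCA, as did those of Gbp9 and Gbp4. Alternative fits were read for the members alone. With LCA 3 of the 6 rose, Gbp9 (0.43 ± 0.09), Gbp10 (0.21 ± 0.07) and Gbp6 (0.16 ± 0.05), where all 4 of the other cluster fell. With TCDCA 3 rose, Gbp6 (0.32 ± 0.05), Gbp10 (0.26 ± 0.07) and Gbp4 (0.20 ± 0.06), where Gbp2, Gbp3 and Gbp5 fell. The genes of this cluster are close relatives that could share reads, and the difference between the clusters was not tested.

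The genes upstream of the members were read from lists of the pathway. Ifng, the ligand gene, was scarce, at 4.43 ± 0.974 CPM in control (SD, n = 3). It fell with DehydroLCA (-0.84 ± 0.19) and IsoLCA (-0.77 ± 0.19) and rose with UDCA (0.77 ± 0.16), and it did not pass with LCA (0.06 ± 0.17) or IsoAlloLCA (-0.13 ± 0.18). The receptor gene Ifngr1 fell with LCA (-0.73 ± 0.06), IsoLCA (-0.70 ± 0.06), DehydroLCA (-0.46 ± 0.06) and UDCA (-0.23 ± 0.06) and rose with IsoAlloLCA (0.59 ± 0.06), from 239.6 ± 6.06 to 361 ± 26.2 CPM. The partner Ifngr2, at 7.04 ± 0.622 CPM in control, rose with TCDCA (0.55 ± 0.08), IsoAlloLCA (0.39 ± 0.08), LCA (0.37 ± 0.08) and UDCA (0.30 ± 0.08). Jak1 fell slightly with LCA (-0.13 ± 0.04) and Jak2 rose with IsoAlloLCA (0.23 ± 0.05). Of the 5 inhibitors, Socs1 fell with IsoAlloLCA (-0.43 ± 0.09) and did not pass with LCA (-0.06 ± 0.09). With IsoAlloLCA 1 of the inhibitors rose, 2 fell and 2 of 5 missed the threshold, against 30.6% of tested genes that rose and 27.8% that fell.

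Of the 8 other interferon regulatory factor genes, 2 rose, 4 fell and 2 did not pass with IsoAlloLCA. Of all tested genes, 30.6% rose and 27.8% fell there. Irf8, a factor of myeloid and effector T cells, fell from 123 ± 3.20 to 47.9 ± 7.09 CPM (-1.36 ± 0.07), and Irf2, which competes with IRF1 for the same sites, rose (0.38 ± 0.05). Irf9, a subunit of the type I interferon factor, rose with LCA (0.32 ± 0.05) and fell with IsoAlloLCA (-0.19 ± 0.06).

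Of 25 other listed targets of interferon gamma and IRF1, 21 could be tested, and none of their counts was tested against those of the members. With LCA 7 rose, 4 fell and 10 of 21 missed the threshold, with IsoLCA 0 rose, 7 fell and 14 of 21 missed the threshold, with DehydroLCA 0 rose, 2 fell and 19 of 21 missed the threshold and with IsoAlloLCA 7 rose, 7 fell and 7 of 21 missed the threshold. Of all tested genes, 30.6% rose and 27.8% fell with IsoAlloLCA, near the shares of this list. With LCA 17.7% of all tested genes rose and 18.8% fell. The targets that passed with IsoLCA and DehydroLCA had fallen, but most targets missed the threshold in both. Of all tested genes, 3.73% rose and 6.12% fell with IsoLCA, and 2.41% and 3.41% with DehydroLCA. Medians of the listed targets were 0.02, -0.13, -0.10 and 0.05. Nlrc5, the activator of class I antigen presentation genes, rose with TCDCA (0.24 ± 0.07) and did not pass with LCA (0.13 ± 0.07) or IsoAlloLCA (0.04 ± 0.07). Genes best known as stimulated by type I interferon took another course: with LCA 19 rose, 0 fell and 5 of 24 missed the threshold, with a median of 0.63, where 9 of the 10 members fell. Isg15, a ubiquitin-like modifier, was 1.39 ± 0.13 with LCA and -0.75 ± 0.16 with IsoAlloLCA. With IsoAlloLCA 0 rose, 18 fell and 6 of 24 missed the threshold, with DehydroLCA 6 rose, 0 fell and 18 of 24 missed the threshold and with TCDCA 0 rose, 10 fell and 14 of 24 missed the threshold. Of all tested genes, 2.41% rose and 3.41% fell with DehydroLCA, and 5.08% rose and 8.04% fell with TCDCA.

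**Figure D5:**
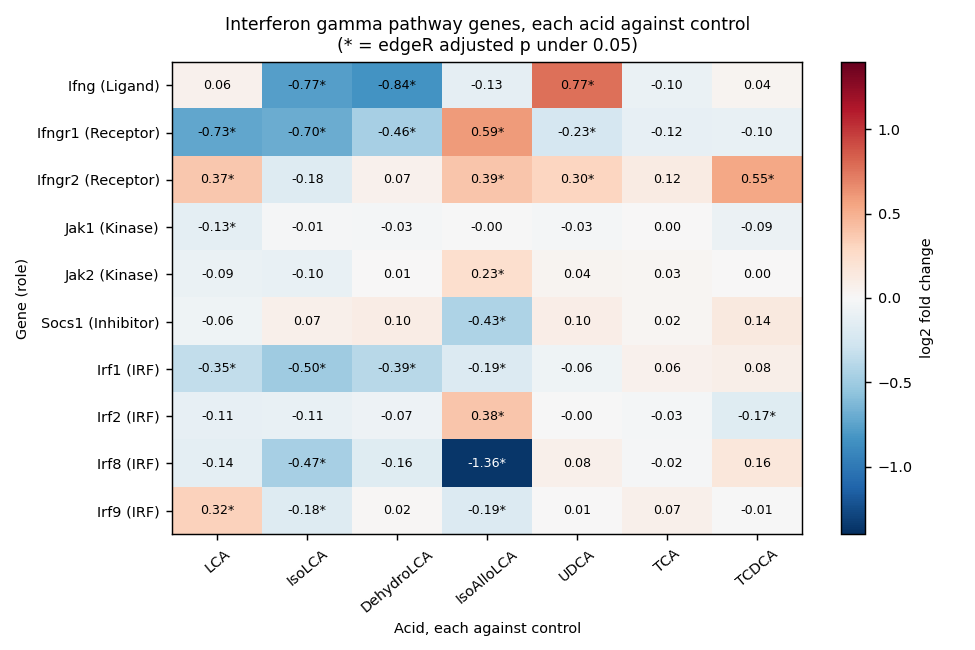
Log2 fold changes of interferon gamma pathway genes (rows, with their role) for each acid against control (columns); colour and printed numbers give the same value and an asterisk marks an edgeR adjusted p under 0.05. Ifngr1 is lower with LCA, IsoLCA, DehydroLCA and UDCA and higher with IsoAlloLCA, and Irf8 is lowest with IsoAlloLCA.

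The genes most like the members in pattern were sought among 9144 other tested genes that reached 10 CPM in a group, by Pearson correlation of the 8 group means of log2 CPM. Closest to the mean of the 9 GTPase members were Ifi47 (0.98), Cenpe (0.97), Tgtp1 (0.96), Tmem170b (0.95) and Gm1966 (0.95). That mean joins genes that rose with IsoAlloLCA and genes that fell, whose changes partly offset, so likeness to it is not likeness to each member. Closest to Irf1 were Abcb8 (1.00), Etnk1 (0.98), Mospd2 (0.97), Ifi47 (0.96) and Tmco3 (0.95). Ifi47, an immunity-related GTPase gene, was in both lists. It had a range against control from -0.46 with DehydroLCA to 0.04 with TCA, whereas the changes of Abcb8, from -0.17 to 0.04, were much smaller than those of Irf1. All values share the same 24 libraries, and 8 means over so many candidates describe likeness only. Among the members, the group means of Igtp and Iigp1 correlated at 0.97 and those of Gbp3 and Gbp2 at 0.89, while Gbp5 and Irgm1 stood at -0.81.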

How the data were processed

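Per the labels' protocols, a spin-column kit yielded the RNA and cDNA libraries were prepared for ultra-low input. The authors deposited expected counts per gene, summed over exons (mm10) by HOMER as raw values, per the file headers. Of the values, 29.43% end in 0.5 and were rounded up to whole counts for testing. STAR, DESeq2 and GRCm38 are also named, without versions, in the submitters' processing notes. The design had assumed whole counts, and the same count test was used. The Length column of the table, deposited beside the counts, served for RPKM.

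Groups and replicate numbers came from the sample titles. Counts of the 24 libraries were fitted together in R 4.3.3 with edgeR 4.0.16 (TMM, filterByExpr, glmQLFit and glmQLFTest, 1 coefficient per group, 16 residual degrees of freedom). The SE is the absolute log2 fold change over the square root of F. The fit was tested on simulated data. No pair of replicates matched within sampling noise (chi-square per degree of freedom 2.83 to 18.7). Depths of 25998051 to 41024340.5 counts gave each member at least 1043 counts in every library. Counting error was not compared with the spread member by member. Same-numbered libraries deviated together in IsoLCA with LCA (r = 0.12 to 0.60) and IsoAlloLCA with IsoLCA (r = 0.21 to 0.75), a pairing taken from the data and not from the labels. Members and lists were chosen with earlier results of these data known. Named genes are the 10 members, fixed pathway genes, the further inducible GTPases and the 5 genes most like each of 2 profiles. Results for 1 pathway gene and 1 marker list are not reported here. Alternatives were other scalings, DESeq2 1.42.0, other filters, the 6 libraries of a comparison alone, a replicate block and leaving out each replicate. Motifs were searched in RefSeq promoter windows, and shared sequence was counted in GENCODE M21 transcripts.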

Additional observations from a re-analysis of the deposited data

How the results depend on the processing

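Of 1692 values of single members under the alternatives, 1605 kept their direction or lack of a call, 55 lost the call, 32 gained one and none reversed a called direction. The number of members called, 0 with TCA in edgeR, was 1 (Gbp5) with DESeq2, 1 with no filter and 0 to 1 when 1 replicate was left out. It was 2 to 3 for TCDCA when 1 replicate was left out, against 4 with all, and 0 to 2 for DehydroLCA against LCA, against 2. At an unadjusted p under 0.05, 1 member, Gbp5, passed with TCA. Over all genes, TCA changed 57 in the reported fit, 101 with DESeq2, 123 with no filter and 14 in the 6 libraries alone. With the replicate block 10 members fell with DehydroLCA. Between UDCA and LCA 8 differed (Gbp3 and Irgm1 gained), and between TCA and TCDCA 3 (Gbp7 gained). The counts of the other comparisons with control did not change. The block raised the calls over all 13044 tested genes too. With DehydroLCA 522 fell, against 445 without it. Between UDCA and LCA 2067 were higher and 1687 lower, against 1934 and 1570. Between TCA and TCDCA 455 were higher and 189 lower, against 346 and 125. Outside IsoLCA with LCA and IsoAlloLCA with IsoLCA the numbers were not shown to pair libraries, and 13 of 24 libraries had their closest library of another group under the same number. Falls of Iigp1, Gbp2 and Tgtp2 with LCA and of Iigp1 and Irgm1 with IsoAlloLCA, and the rise of Gbp5 with IsoAlloLCA, kept their calls under every alternative run. Library size alone shifted the median of all genes by less than 0.1 on the log2 scale. Where 1 library was left out its group had 2.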

Other observations

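Genes best known as stimulated by type I interferon differed between LCA and its relatives. Of the 24 genes listed, 22 were lower with IsoLCA than with LCA, 20 with DehydroLCA and 19 with UDCA, and none was higher, with medians of -1.02, -0.56 and -0.95. Of all tested genes, 14.6%, 7.49% and 12% were lower in these pairs. Among the 10 members 4, 2 and 1 were lower, and with UDCA 5 were higher; the difference between the lists was not tested. Isg15 had 6.07 ± 1.53 CPM in control (SD, n = 3), 15.8 ± 0.628 with LCA, 5.01 ± 0.694 with IsoLCA and 3.58 ± 0.516 with IsoAlloLCA. Irf7, an activator of type I interferon genes chosen here after its values were seen, rose with LCA (0.89 ± 0.13) and fell with IsoAlloLCA (-0.42 ± 0.14). Of 4 genes of the type I receptor pathway, with LCA 1 rose, 0 fell and 3 of 4 missed the threshold, and with IsoAlloLCA 2 rose, 1 fell and 1 of 4 missed the threshold. Of all tested genes, 17.7% rose and 18.8% fell with LCA, and 30.6% rose and 27.8% fell with IsoAlloLCA. With TCA, 11 of the 24 type I genes were higher than with TCDCA and none was lower, where among the members Gbp2 and Gbp5 were higher. Of all tested genes, 2.65% were higher in that pair and 0.958% lower.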
